A study of Mus musculus with 8 samples.

Results

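The 37 genes described here are a listed set of endothelial and haemogenic progenitor genes: receptors of blood vessel cells, their ligands, junction and surface proteins, and the transcription factors that specify endothelium and the endothelium that gives rise to blood. They were taken by symbol from a table of 55487 annotated genes, and each of the 37 matched exactly 1 row. A filter on low counts kept 13280 genes for testing, 35 of the 37 among them, and left out Nos3 and Sox18. The study counted polyadenylated RNA by QuantSeq, a method that reads a short tag near the 3′ end of each transcript, in mouse embryonic stem cells differentiated in serum-free medium toward precardiac mesoderm and harvested on day 6. The groups were the parental line E14-Tg2a, with the genotype WT, and line 4D, which is Tbx1-/- and was made from the same cells, with 4 replicate libraries each. Tbx1 encodes a T-box transcription factor of the pharyngeal and second heart field mesoderm. The labels name a single mutant line, so the Tbx1 genotype and anything else particular to line 4D cannot be told apart, and nothing beyond the term biological replicate says how separate the 4 cultures of a line were.

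Endothelial cells and early blood share a mesodermal progenitor that carries the VEGF receptor Kdr. The ETS factor Etv2 is expressed briefly in that progenitor, and its relatives Fli1, Erg and Ets1 then hold the endothelial programme, together with the SOXF factors. Haemogenic endothelium is the endothelium that turns on Gata2 and Runx1 and releases blood cells. In precardiac cultures these cells arise beside cardiac progenitors, with which they share Kdr-positive mesoderm.

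Tbx1 itself had 39, 65, 38 and 22 counts in parental libraries 1 to 4 and 3, 0, 1 and 0 counts in mutant libraries 1 to 4, so the labels and the targeted gene went the same way (log2 change -5.08, edgeR adjusted p = 0.00432). The libraries held 3803561 to 6293907 counts. Library 1 of each line was most often the highest for the endothelial genes. Parental library 1 was the highest of its line for 24 of the 35 tested genes (68.6%, against 27.0% of all tested genes), and mutant library 1 for 28 of 35 (80%, against 24.9%). Parental library 2 was the highest of its line for 10. Library 1 of each line also held the highest summed mesenchyme and endoderm markers of its line. Parental library 1 held the highest summed cardiomyocyte markers as well. Summed over all 37 genes, the parental libraries held 1905, 1608, 1239.9 and 1251 CPM (counts scaled to an equal library size) and the mutant libraries 2581, 1513, 1708 and 1580.2. The lines overlapped in this sum. In these bulk libraries, more cells of a type and more RNA per cell cannot be told apart.

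**Figure D1:**
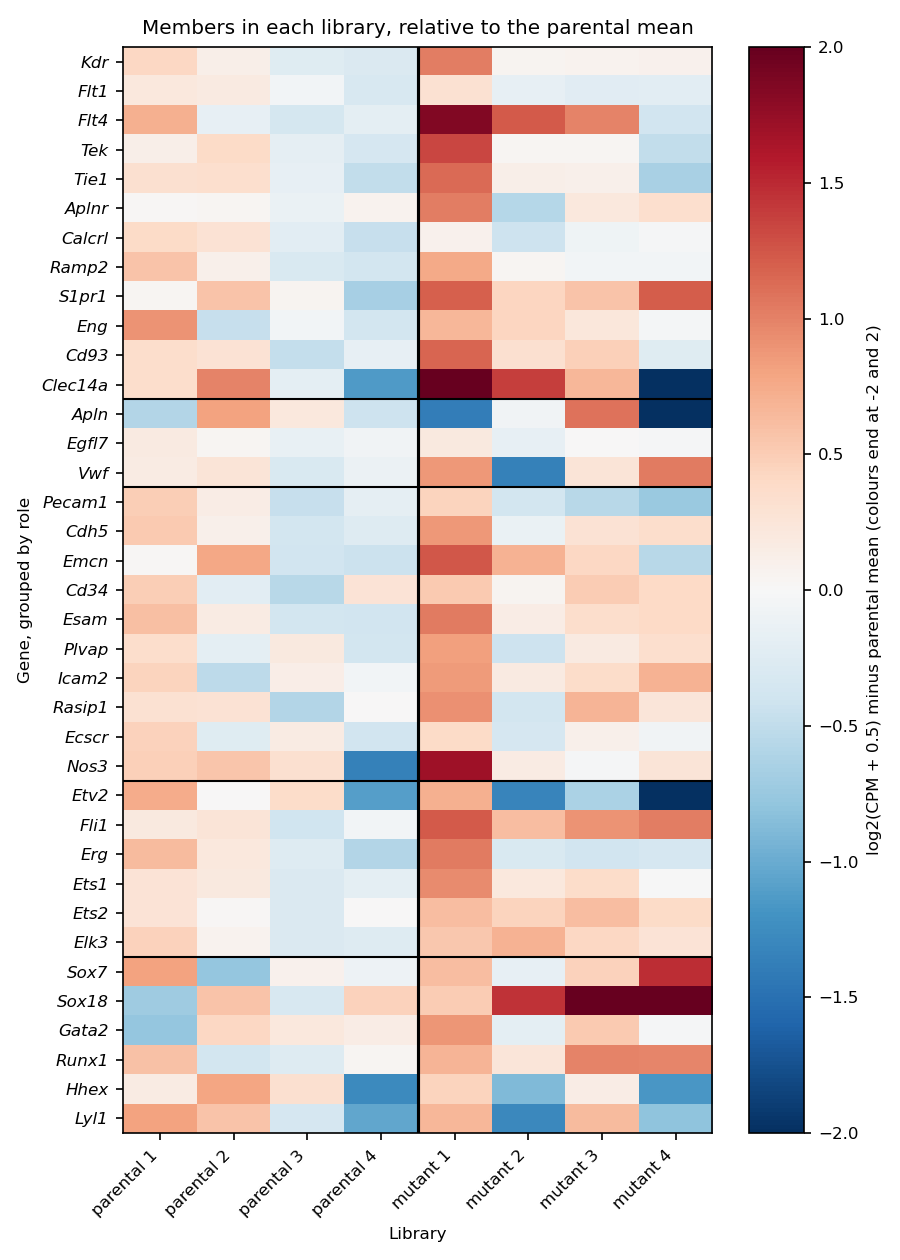
Expression of the 37 genes (rows, grouped by role) in the 4 parental and 4 mutant libraries (columns), as the log2 difference of each library from the gene's parental mean, with 0.5 CPM added to every value. Mutant library 1 is the highest mutant library for 28 of the 35 tested genes, and Fli1 is higher in each mutant library than in any parental library.

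For orientation, the promoters of 4 of these genes are shown. The vascular receptors Tie1 and Flt1 hold AGGAAG or CGGAAG, forms of the motif bound by ETS factors, and Flt4 and Ets2 hold neither. Other forms of that motif were not counted. Each promoter runs 5′ to 3′ on the gene's strand from 250 bases before to 50 bases after the RefSeq transcript start (build GRCm38.p6). Capitals mark AGGAAG or CGGAAG on either strand. Tie1 lies at chr4:118489800-118490099 (minus strand), Flt1 at chr5:147725962-147726261 (minus strand), Flt4 at chr11:49609429-49609728 (plus strand) and Ets2 at chr16:95702157-95702456 (plus strand). The GENCODE M21 spans of Flt4 and Ets2 start before these stretches, at bases 49609263 and 95702075. Their stretches thus lie wholly inside the gene spans, and the bases before those starts were not searched.
Tie1: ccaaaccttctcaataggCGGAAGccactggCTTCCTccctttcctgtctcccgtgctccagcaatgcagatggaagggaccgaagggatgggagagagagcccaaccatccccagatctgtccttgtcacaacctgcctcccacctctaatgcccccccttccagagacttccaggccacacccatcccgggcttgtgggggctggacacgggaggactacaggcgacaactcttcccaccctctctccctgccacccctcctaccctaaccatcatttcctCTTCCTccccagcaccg
Flt1: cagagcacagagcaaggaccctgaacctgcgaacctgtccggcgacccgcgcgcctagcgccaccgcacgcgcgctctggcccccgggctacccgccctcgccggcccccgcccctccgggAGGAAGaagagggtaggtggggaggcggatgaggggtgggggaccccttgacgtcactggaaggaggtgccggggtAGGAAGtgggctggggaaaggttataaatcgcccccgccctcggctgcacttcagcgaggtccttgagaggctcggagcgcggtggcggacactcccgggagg
Flt4: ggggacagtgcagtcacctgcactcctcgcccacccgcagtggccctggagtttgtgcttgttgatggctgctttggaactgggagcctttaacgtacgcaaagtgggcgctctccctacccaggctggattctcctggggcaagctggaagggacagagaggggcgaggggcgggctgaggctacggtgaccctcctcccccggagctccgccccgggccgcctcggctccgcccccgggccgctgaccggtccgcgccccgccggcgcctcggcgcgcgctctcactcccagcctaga
Ets2: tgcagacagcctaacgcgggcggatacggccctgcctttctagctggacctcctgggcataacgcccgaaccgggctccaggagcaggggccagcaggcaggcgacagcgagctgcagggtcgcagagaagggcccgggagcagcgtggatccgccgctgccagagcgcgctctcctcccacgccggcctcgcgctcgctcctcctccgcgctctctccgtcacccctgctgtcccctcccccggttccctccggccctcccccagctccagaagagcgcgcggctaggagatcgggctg
The RefSeq promoter table held 27 promoters of 21 of the 37 genes. Of these 27 promoters, 16 (59.3%) held at least 1 ETS motif, beside 15265 of all 32851 promoters of the same length (46.5%). A GATA motif, AGATAA or TGATAA on either strand, was in 4 of the 27 (14.8%), beside 18.6% of all promoters. Tie1 had 3 ETS matches and Flt1 had 2. The matches are descriptions of sequence and were not tested as binding sites.

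Between the lines, 1 endothelial gene, the ETS factor Fli1, rose in the mutant and none fell. Across all 13280 tested genes, 188 passed an adjusted p under 0.05 in edgeR's quasi-likelihood test (1.42%), 99 higher in the mutant (0.745%) and 89 lower (0.67%). The higher ones were 52.7% of the called genes, and 63.7% with scaling by library size alone. A count of 1 in 35 (2.86%) is too small to set apart from that background. At an unadjusted p under 0.05, 7 of the 35 were higher (20%, against 6.01% of all tested genes) and 0 were lower (against 5.92%). Counted in both directions together, the 7 became 4 of 36 without parental library 3 or 4 and 13 of 35 without parental library 1. Without mutant library 1 there were 6 of 35. The share of all tested genes was not computed for these settings, so these counts have no background beside them. The lines did not overlap, with every mutant library above every parental one, for 2 of the 35 (5.71%, against 3.49%), Fli1 and Ets2, and for 0 in the other direction (against 4.04%). Fitted log2 changes above 0 were found for 28 of the 35 (80%, against 50.2%), with a median of 0.35 beside 0.001 for all tested genes. Without mutant library 1, 23 of 35 were above 0 and the median was 0.11.

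**Figure D2:**
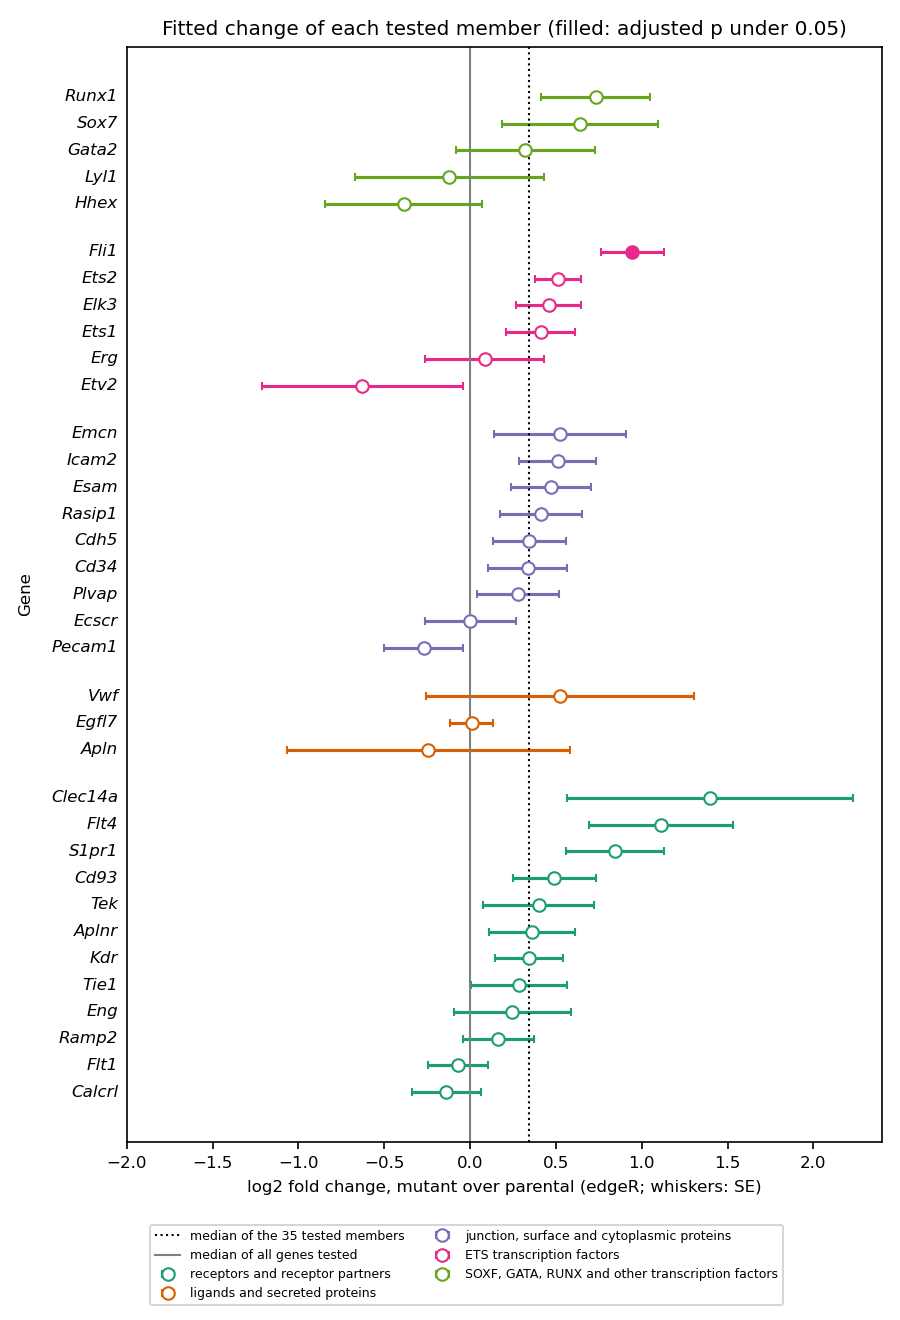
Log2 fold change of line 4D over the parental line for each of the 35 tested genes (edgeR; whiskers, standard error), grouped by role. The filled point, Fli1 at 0.95, is the 1 gene past an adjusted p of 0.05, and the dotted line marks the median of 0.35.

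The ETS transcription factors held the gene that passed the test. Fli1, which keeps vascular and early blood genes active, lies at chr9:32422204-32542861 (mm10, minus strand). In GENCODE M21, 5 small RNA or unclassified gene models share bases with it on the same strand, so part of its counts is uncertain. It was at 44.2, 46.1, 29.04 and 37.1 CPM in parental libraries 1 to 4 and at 91.2, 59.1, 72.1 and 78.6 CPM in mutant libraries 1 to 4. Every mutant library was above every parental one, and the means were 39.1 ± 7.75 and 75.3 ± 13.4 CPM (SD, n = 4). The log2 change was 0.95 ± 0.18 (SE), a fold of 1.93, with an edgeR adjusted p of 0.00966. It was 0.83 (adjusted p = 0.0491) without mutant library 1, and without parental library 3 it no longer passed (0.82, adjusted p = 0.0525). Relative to the summed CPM of the other 36 genes, Fli1 stood at 2.37, 2.95, 2.399 and 3.06% in the parental libraries and at 3.66, 4.06, 4.41 and 5.24% in the mutant libraries. Its ratio to Pecam1, a pan-endothelial adhesion molecule, was 0.341 to 0.455 in the parental libraries and 0.730 to 1.43 in the mutant libraries. Its ratio to Cdh5, the cadherin of endothelial junctions, was 0.494 to 0.721 against 0.807 to 1.05. The lines did not overlap on these scales, but they did for the ratio to Kdr, at 0.134 to 0.184 against 0.182 to 0.299. Blood and mesenchymal cells also express Fli1, and the summed primitive erythroid markers were higher in every mutant library (685 to 987 CPM) than in any parental one (119 to 174 CPM). The part of these cell types in the level of Fli1 was not tested.

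Ets2, a widely expressed ETS factor downstream of growth factor signalling, was the other gene without overlap. It lies at chr16:95702075-95721051 (mm10, plus strand), and its promoter at the RefSeq start, printed above, holds no AGGAAG or CGGAAG. That stretch begins inside this span, and the bases before the span were not searched. Its level was 117, 98.7, 79.1 and 97.8 CPM in the parental libraries and 150.2, 133, 150.2 and 127 CPM in the mutant libraries. All 4 mutant values were above all 4 parental ones, with means of 98.3 ± 15.6 and 140.1 ± 11.9 CPM. The log2 change of 0.51 ± 0.13 did not pass (edgeR adjusted p = 0.0707). It passed under 5 of 16 alternatives, DESeq2 (adjusted p = 0.0161) and leaving out parental library 1 (log2 change 0.61, adjusted p = 0.0483) among them, and its adjusted p reached 0.255 without parental library 3.

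The other ETS factors did not pass the test. Ets1, next to Fli1 on chromosome 9 at a distance of 93.4 kb with no protein-coding gene between, had a log2 difference of 0.41 ± 0.20 (edgeR adjusted p = 0.436). Its values were 62.01, 58.7, 41.5 and 44.7 CPM against 98.3, 59.3, 65.9 and 50.6 CPM, and the lines overlapped. Erg, which maintains the endothelial state and lies 115 kb from Ets2 with no protein-coding gene between, had a log2 difference of 0.08 ± 0.35 (adjusted p = 0.964). Elk3, a ternary complex factor of vascular cells, was at 55.5, 42.3, 32.9 and 33.5 CPM in the parental libraries and 58.3, 65.2, 53.6 and 48.4 CPM in the mutant libraries. The ranges of Elk3 overlapped, and its log2 difference of 0.46 ± 0.19 had an unadjusted p of 0.0267 but an edgeR adjusted p of 0.331.

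Etv2, the factor that starts the programme, was low in both lines. It was at 13.5, 7.89, 10.2 and 3.37 CPM in the parental libraries and 13.1, 2.83, 4.90 and 1.37 CPM in the mutant libraries, and the lines overlapped. Mutant library 1 lay near the highest parental value, and mutant libraries 2 and 4 lay below all parental values. The log2 difference was -0.63 ± 0.58 (edgeR adjusted p = 0.743), and -1.495 without mutant library 1, where it did not pass either (adjusted p = 0.348). Summed over the 6 ETS factors, the parental libraries ranged from 208 to 321 CPM and the mutant libraries from 320.3 to 449 CPM. The ranges met at their ends.

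**Figure D3:**
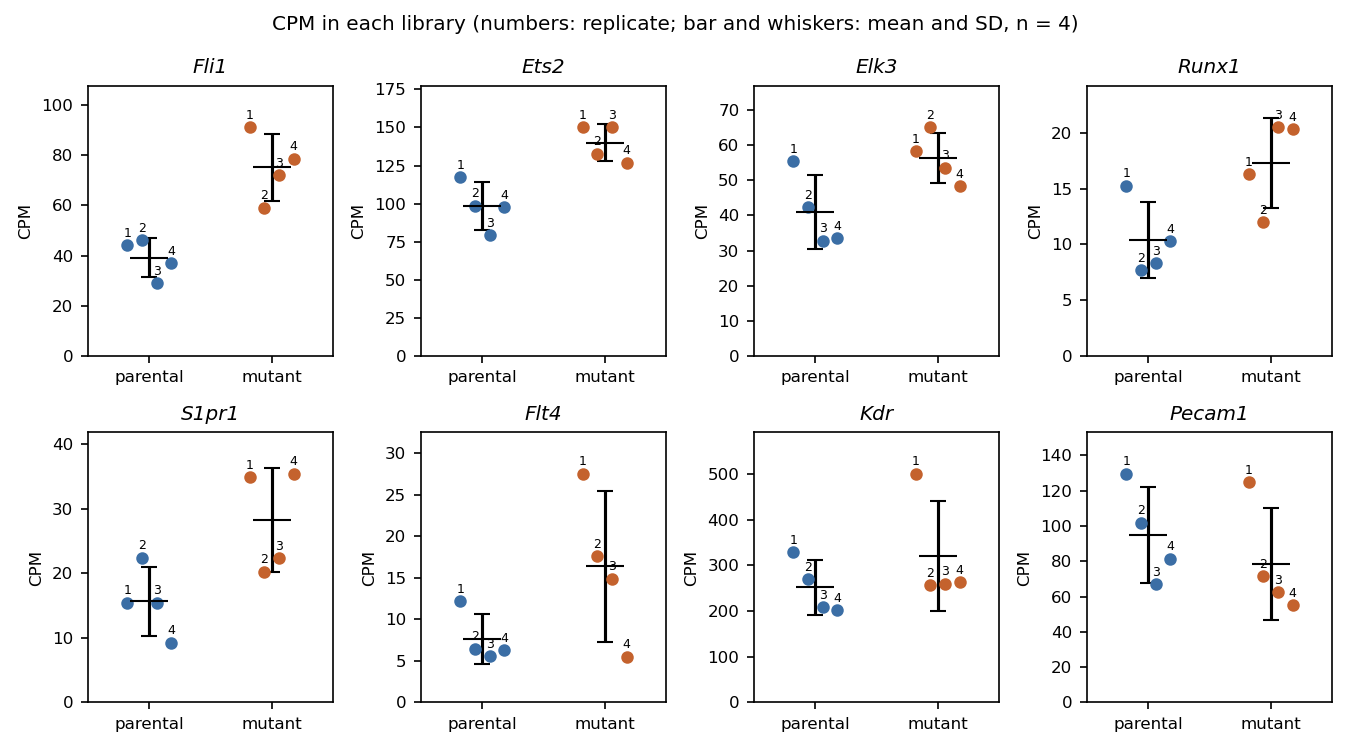
CPM of selected genes in each library, parental libraries at the left and mutant libraries at the right of each panel, with numbered points for libraries and bars and whiskers for the mean and SD (n = 4). The 4 mutant libraries of Fli1, from 59.1 to 91.2 CPM, sit above the 4 parental libraries, from 29.0 to 46.1 CPM, while Kdr and Pecam1 overlap.

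Among the 12 receptors and receptor partners, none passed edgeR's test, DESeq2 or limma-voom. In edgeR, 2 were higher and 0 lower at an unadjusted p under 0.05, against 6.01% and 5.92% of all tested genes. A fitted log2 difference above 0 was found for 10, against 50.2% of all tested genes, and the median was 0.35. These shares stand beside the counts of the other role groups below. Kdr, the main signalling receptor for VEGF-A, was the most abundant of them. It was at 329, 269, 208 and 202 CPM in the parental libraries and 501, 256, 259.7 and 263 CPM in the mutant libraries. Mutant library 1 stood far above the other 3 mutant libraries, which lay within the parental range. The log2 difference was 0.34 ± 0.20 (edgeR adjusted p = 0.534) and 0.04 without mutant library 1. Flt1, the receptor that binds VEGF-A and limits its supply to Kdr, showed the same high library, with 64.7, 63.7, 53.8 and 44.7 CPM against 69.4, 49.9, 48.1 and 48.4 CPM and a log2 difference of -0.07 ± 0.18 (adjusted p = 0.929).

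**Figure D4:**
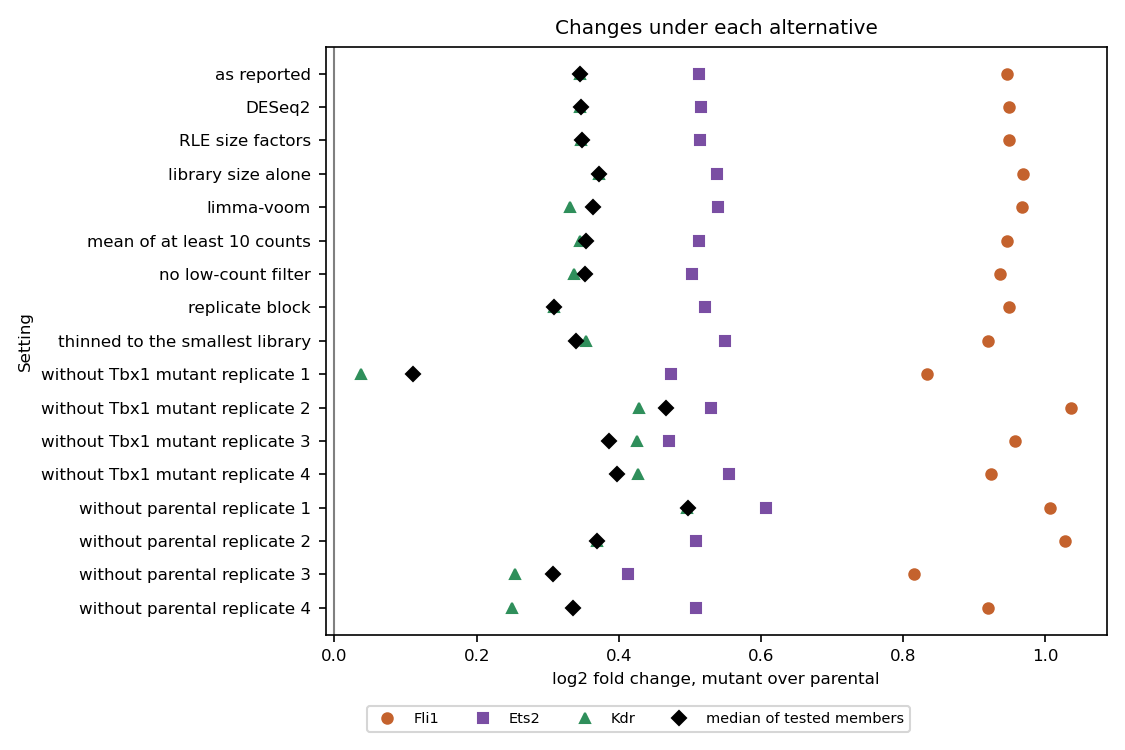
Log2 fold change of line 4D over the parental line for Fli1, Ets2 and Kdr and the median of the tested genes (points) under each processing alternative (rows). Fli1 stays between 0.82 and 1.04, whereas Kdr drops to 0.04 and the median to 0.11 without mutant library 1.

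Flt4, the VEGF-C receptor of lymphatic and early venous endothelium, was at 12.2, 6.46, 5.59 and 6.32 CPM in the parental libraries and 27.5, 17.7, 14.9 and 5.50 CPM in the mutant libraries. Mutant libraries 1 to 3 were above all parental libraries, and mutant library 4 was below them. The log2 difference of 1.11 ± 0.42 had an unadjusted p of 0.0160 and an edgeR adjusted p of 0.264. It passed at 1.39 (adjusted p = 0.0480) without mutant library 4 and was 0.74 (adjusted p = 0.595) without mutant library 1.

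S1pr1, the sphingosine-1-phosphate receptor that steadies vessel walls, was at 15.5, 22.4, 15.5 and 9.27 CPM in the parental libraries and 34.9, 20.3, 22.3 and 35.5 CPM in the mutant libraries. Mutant libraries 1 and 4 were above all parental libraries, and the other 2 lay within the parental range. The log2 difference was 0.85 ± 0.29, with an unadjusted p of 0.00837 and an edgeR adjusted p of 0.193. Clec14a, a C-type lectin of the endothelial surface, was the receptor with the lowest mean, with 18, 30, 13 and 4 counts in the parental libraries and 113, 33, 23 and 0 counts in the mutant libraries. Its log2 difference of 1.40 ± 0.83 (adjusted p = 0.557) had the largest SE of the 12 receptors. Mutant library 1 held most of the mutant counts and mutant library 4 held none, and without mutant library 1 the log2 difference was 0.40 (adjusted p = 0.925).

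The angiopoietin receptor Tek and its partner Tie1 had log2 differences of 0.40 ± 0.32 (edgeR adjusted p = 0.698) and 0.29 ± 0.28 (adjusted p = 0.755), both overlapping between the lines. The adrenomedullin receptor Calcrl and its partner Ramp2 stood at -0.14 ± 0.20 and 0.17 ± 0.21. Ramp2 shares bases with Vps25 on the same strand, so its counts are uncertain. The apelin receptor Aplnr, the TGF-beta co-receptor Eng and the lectin-domain receptor Cd93 stood at 0.36 ± 0.25, 0.25 ± 0.34 and 0.49 ± 0.24, with adjusted p from 0.435 to 0.837. Eng shares bases with the small RNA genes Mir1954, Gm47291 and Gm26236 on the same strand, so part of its counts is uncertain. Without mutant library 1, Aplnr stood at 0.03, Eng at 0.11, Cd93 at 0.18, Tek at -0.14 and Tie1 at -0.14.

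Of the 3 ligands and secreted proteins, none passed edgeR's test, DESeq2 or limma-voom, and 0 had an unadjusted p under 0.05. Egfl7, a secreted protein of the vessel matrix whose gene hosts the microRNA miR-126, had the highest level of them. It was at 146, 132, 116 and 123 CPM in the parental libraries and 147, 115, 129 and 127 CPM in the mutant libraries, with a log2 difference of 0.01 ± 0.12 (edgeR adjusted p = 0.989). The ranges of Egfl7 overlapped, and the gene shares bases with Gm20532 on the same strand, so its counts are uncertain. Vwf, the clotting glycoprotein stored by mature endothelium, had 12, 13, 9 and 8 counts against 23, 2, 13 and 16 counts, with overlapping ranges and a log2 difference of 0.53 ± 0.78 (adjusted p = 0.855). Apln, the ligand of Aplnr, had a log2 difference of -0.24 ± 0.82 (adjusted p = 0.952).

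Of the 10 junction, surface and cytoplasmic proteins, 9 were tested, none passed in edgeR, DESeq2 or limma-voom, 1 had an unadjusted p under 0.05 and 8 had a fitted log2 difference above 0, with a median of 0.35. Pecam1 was the exception in sign, at 129.6, 102, 66.9 and 81.5 CPM in the parental libraries and 125, 71.5, 62.3 and 54.98 CPM in the mutant libraries. The lines overlapped, with a log2 difference of -0.27 ± 0.23 (edgeR adjusted p = 0.718). Cdh5 was at 89.5, 66.02, 48.03 and 51.4 CPM against 113, 56.2, 75.6 and 78.6 CPM. Cdh5 overlapped as well, with a log2 difference of 0.35 ± 0.21 (adjusted p = 0.567).

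Icam2, an adhesion molecule whose gene lies 266 kb from Pecam1 on chromosome 11, was at 41.5, 20.8, 33.03 and 29.1 CPM in the parental libraries and 54.9, 34.2, 39.1 and 48.9 CPM in the mutant libraries. Mutant libraries 1 and 4 were above all parental libraries and the other 2 were not. The log2 difference of 0.51 ± 0.22 had an unadjusted p of 0.0345 and an edgeR adjusted p of 0.364. The sialomucins Emcn and Cd34, the junction molecule Esam, the fenestral protein Plvap and the GTPase regulator Rasip1, which shares bases with Izumo1 on the same strand, stood between 0.28 and 0.52 on the log2 scale, with adjusted p from 0.443 to 0.718. Without mutant library 1, these 5 stood between 0.04 (Plvap) and 0.28 (Cd34). Ecscr, a surface protein of endothelial cells, stood at 0.00 ± 0.27. Nos3, the endothelial nitric oxide synthase, had 11, 12, 11 and 1 counts against 32, 7, 7 and 6 counts and was not tested.

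Among the 6 SOXF, GATA, RUNX and other transcription factors, 5 were tested, none passed in edgeR, DESeq2 or limma-voom, and 1 had an unadjusted p under 0.05. Runx1, needed for blood cells to leave haemogenic endothelium, was at 15.3, 7.71, 8.30 and 10.3 CPM in the parental libraries and 16.3, 11.98, 20.5 and 20.3 CPM in the mutant libraries. Mutant libraries 1, 3 and 4 were above all parental libraries and mutant library 2 was not. Its log2 difference of 0.73 ± 0.32 had an unadjusted p of 0.0324 and an edgeR adjusted p of 0.357. Gata2, which acts upstream of Runx1, was at 4.18, 10.2, 8.78 and 8.43 CPM against 14.3, 6.54, 11.1 and 7.42 CPM, with overlapping ranges and a log2 difference of 0.32 ± 0.40 (adjusted p = 0.818).

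Sox18, a SOXF factor of forming vessels and lymphatics, had 0, 4, 1 and 3 counts in the parental libraries and 4, 8, 17 and 34 counts in the mutant libraries. The lines overlapped once depth was taken into account, and the gene did not pass the low-count filter. With no filter its log2 difference was 3.21 (edgeR adjusted p = 0.234). Its relative Sox7 stood at 0.64 ± 0.46 (adjusted p = 0.637), the homeobox factor Hhex at -0.39 ± 0.46 (adjusted p = 0.804) and Lyl1, a basic helix-loop-helix factor of early blood, at -0.12 ± 0.55 (adjusted p = 0.967).

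Genes of the same pathways outside the 37 were taken from 5 lists, of which Tal1 and Spi1 stand in more than 1. Over all tested genes, edgeR called 0.745% higher and 0.67% lower at an adjusted p under 0.05. At an unadjusted p under 0.05 in edgeR, 6.01% were higher and 5.92% lower. A log2 difference above 0 was found for 50.2%. Every mutant library was above every parental one for 3.49% and below every parental one for 4.04%. In both directions together, DESeq2 called 3.05% of all tested genes and limma-voom 1.9%. These shares stand beside each list below. Of 21 ligands and co-receptors of the endothelial receptors, 16 were tested, 1 rose in edgeR's test, none fell and the median was -0.00197. At an unadjusted p under 0.05, 3 were higher and 2 lower. DESeq2 also called the VEGF co-receptor Nrp2 higher and the ligand Vegfb lower, and limma-voom also called Nrp2 higher. Vegfb was at 120 to 149 CPM in the parental libraries and 91.9 to 113 CPM in the mutant libraries, with no overlap. The gene that rose was S1pr3, another sphingosine-1-phosphate receptor, at 3.82, 6.64, 7.18 and 17.7 CPM in the parental libraries and 23.5, 35.1, 45.05 and 45.9 CPM in the mutant libraries. Every mutant library of S1pr3 was above every parental one, with a log2 change of 2.09 ± 0.37 (edgeR adjusted p = 0.00484), and it passed under all 16 alternatives.

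Of 27 other endothelial and endocardial genes, 26 were tested, 1 rose in edgeR's test, 2 fell and 18 had a log2 difference above 0 (median 0.23). At an unadjusted p under 0.05, 3 were higher and 4 lower. DESeq2 also called Cldn5 higher, the claudin of endothelial tight junctions, which edgeR did not (log2 difference 0.87 ± 0.23, adjusted p = 0.0773). Cldn5 was at 40.9, 39.5, 25.1 and 25.3 CPM in the parental libraries and 88.02, 43.6, 53.04 and 53.1 CPM in the mutant libraries, with no overlap. In this list Klf2 and Tal1 were also higher in every mutant library than in any parental one. Podxl, Foxc1 and Foxc2 were lower in every mutant library than in any parental one. Klf2, a factor induced by blood flow in endothelium and also active in pluripotent cells, rose from 19.8 ± 5.13 to 41.3 ± 4.91 CPM (log2 change 1.07 ± 0.23, edgeR adjusted p = 0.0190). Podxl, a sialomucin of endothelial and many other surfaces, fell from 145 ± 36.1 to 74.00 ± 22.02 CPM (log2 change -0.97 ± 0.21, adjusted p = 0.0200). Foxc1, a forkhead factor of mesoderm and vessels, fell from 46.8 ± 7.79 to 22.6 ± 5.17 CPM (log2 change -1.05 ± 0.21, adjusted p = 0.0124). With 1 library left out, some of these calls were lost. Klf2 did not pass without mutant library 1 or 3 or parental library 2 or 3 (adjusted p up to 0.0719), Podxl without parental library 1, 2 or 3 (up to 0.111) and Foxc1 without mutant library 3 or parental library 2 (up to 0.0727). Over all 16 alternatives the log2 change was 0.88 to 1.16 for Klf2, -1.12 to -0.79 for Podxl and -1.22 to -0.96 for Foxc1.

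Of 24 haemogenic and early blood genes, 19 were tested, none passed in edgeR, DESeq2 or limma-voom, 3 were higher and 1 lower at an unadjusted p under 0.05, and 17 had a log2 difference above 0 (median 0.38). The smallest p was that of Tal1, the partner of Gata2 and Lmo2 in early blood, at 19.2 ± 3.10 against 32.5 ± 7.34 CPM (log2 difference 0.76 ± 0.23, edgeR adjusted p = 0.131). It passed only without mutant library 4 (0.90, adjusted p = 0.0429). Tal1, Kit and Tcf12 were higher in every mutant library than in any parental one. Of 22 arterial, venous and lymphatic genes, 18 were tested and none passed in edgeR or limma-voom (median 0.04). At an unadjusted p under 0.05, 1 was higher and 2 were lower, and DESeq2 called the 2 lower ones, Jag1 and the Notch target Hey1. The smallest p there was that of Jag1, a Notch ligand, at 51.6 ± 5.61 against 33.2 ± 3.55 CPM (log2 difference -0.64 ± 0.17, adjusted p = 0.0805). Of 17 other ETS factors, 14 were tested and none passed in edgeR, DESeq2 or limma-voom (median 0.02). At an unadjusted p under 0.05, 1 was higher and 1 lower. The smallest p was that of Etv4, an ETS factor of FGF signalling, with a log2 difference of -1.19 ± 0.49 (adjusted p = 0.331). Elf4 was the factor in this list without overlap, higher in every mutant library.

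Markers of other cell types that the cultures could hold were summed in the same way. The shares of all tested genes given for the pathway lists stand beside these counts too. All 8 primitive erythroid markers were tested and 5 rose, with a summed level of 119 to 174 CPM in the parental libraries and 685 to 987 CPM in the mutant libraries. The 24 early blood genes summed to 761 to 871 CPM against 942 to 1012 CPM, again with no overlap. The broadly expressed Tcf12, Tcf3, Cbfb and Ldb1 held most of that sum, and without these 4, chosen after their values were seen, it was 266 to 305 CPM against 297 to 369 CPM, which overlapped. The 14 cardiomyocyte markers ranged from 657 to 3787 CPM against 131 to 1018 CPM, and 0 of the 13 tested passed in edgeR, DESeq2 or limma-voom, while 8 were lower at an unadjusted p under 0.05. Of 10 mesenchyme and smooth muscle markers, 3 rose (Col3a1, Twist1 and Postn), and the sum was 666 to 1729 CPM against 1326 to 1774 CPM. The smooth muscle genes Acta2, Tagln and Cnn1 of that list had log2 differences of -0.45 ± 0.35, -0.72 ± 0.71 and -1.47 ± 0.81, none of which passed. Of 10 macrophage, mast cell and megakaryocyte markers, 3 were tested, none passed in the 3 tools and 0 had an unadjusted p under 0.05. Adgre1, a macrophage marker, did not exceed 1 count in any library. Csf1r, another macrophage marker, was at 0 in all parental libraries and at 1, 8, 17 and 3 counts in the mutant libraries. The pan-leukocyte gene Ptprc was at 0 in all parental libraries and at 0, 14, 3 and 9 counts in the mutant libraries. Neither Csf1r nor Ptprc passed the low-count filter. Cd68, Tyrobp and Fcer1g of that list overlapped between the lines. Early mesoderm markers summed to 749.5 to 801 CPM against 543 to 682 CPM. None of the 8 tested passed in edgeR, 1 was higher and 3 were lower at an unadjusted p under 0.05, and Hand1 was lower in DESeq2 and limma-voom. Without Hand1, left out after its values were seen, the sums were 147 to 182 CPM against 103 to 164 CPM and overlapped. Endoderm markers summed to 254 to 456 CPM against 243 to 280 CPM, with Foxa2 and Krt18 lower. Pluripotent cell markers summed to 47.9 to 54.2 CPM against 61.0 to 86.6 CPM, with Klf2 higher. Without Klf2, left out after its values were seen, they summed to 27.6 to 35.6 CPM against 22.0 to 40.9 CPM and overlapped.

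**Figure D5:**
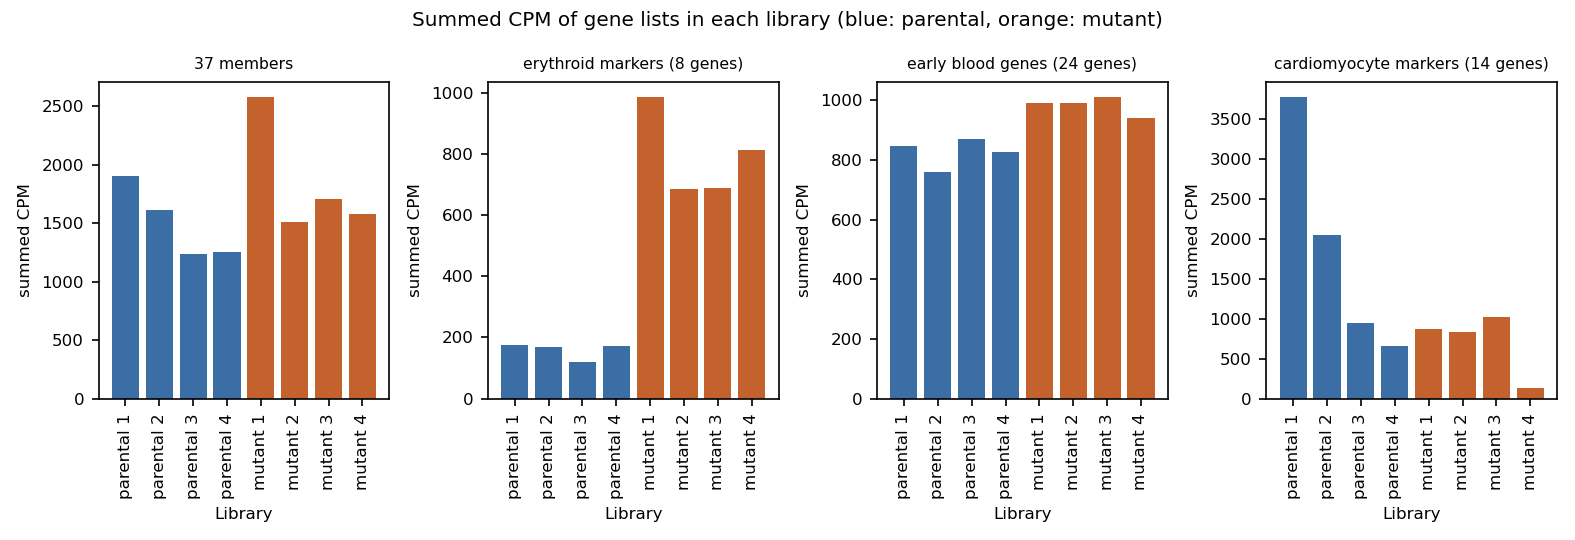
Summed CPM of the 37 genes and of the erythroid, early blood and cardiomyocyte lists in each library (bars; blue, parental; orange, mutant). The erythroid sum is 685 to 987 CPM in the mutant libraries and 119 to 174 CPM in the parental ones, while the sum over the 37 genes overlaps between the lines.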

How the data were processed

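The deposited table holds whole-number read counts per gene for the 8 QuantSeq libraries. Reads were aligned with STAR and counted with featureCounts on mm10, per the submitters' processing notes, and the table's own name gives forward-strand counting. Versions of these tools are not given in the sources used here. Row identifiers were given names and coordinates from GENCODE M21 (54435 identical identifiers of 55487), and promoters came from RefSeq (GRCm38.p6). Counts were kept as deposited, genes were filtered with filterByExpr (13280 kept, 99.5% of all counts) and scaled by TMM (factors 0.960 to 1.04). Lines were compared with edgeR 4.0.16 in R 4.3.3 by the quasi-likelihood F test, two-sided, with Benjamini-Hochberg adjustment over all 13280 genes and a threshold of 0.05. Log2 changes are line 4D over parental, from edgeR's fit with its default prior count. A prior count of 2 was used for log2 CPM, which the correlations of same-numbered libraries rest on. CPM divides a count by the library's total over the 13280 tested genes times its TMM factor. It is not divided by gene length because QuantSeq reads 1 tag per transcript. The totals over all genes were 3803561 to 6293907 counts. On the CPM scale 3 counts stand at 0.479 to 0.825 CPM, below which a level is not resolved, and intervals would cover counting error only. The p-values measure the spread between these libraries, which may be technical. No 2 libraries of a line agreed within counting noise (chi-square per degree of freedom 7.04 to 24.2). The genes and lists were chosen with earlier results of these data known. The genes named with values in every library were those past an adjusted or unadjusted p of 0.05, those whose lines did not overlap, the highest and lowest of each role, and Kdr, Etv2, Pecam1, Cdh5, Gata2 and Runx1. The other genes and pathway lists are given by counts, medians and ranges, with called genes (or the smallest p) of each list named. Alternatives were DESeq2 1.42.0, limma-voom 3.58.1, RLE scaling, library size alone, no filter, a mean of at least 10 counts, thinning to the smallest library, a replicate block and leaving out each library. The test was checked on simulated counts, with 50 genes at each true change. It called 46% of genes at a true log2 change of -1 and 60% at 1. At -2 and 2 it called 62% and 92%, and of genes with no true change 0.0306%. Smaller changes were not simulated, so a gene that did not pass is not shown to be unchanged.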

Additional observations from a re-analysis of the deposited data

Results flagged for a closer look

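Over the 37 genes, 74 groups of 4 libraries were examined for a library far from the other 3, and 6 were found (chance alone gives about 1 in 20). In 5 of the 6 the library was mutant library 1. Kdr was at 501 CPM there, against 256 to 263 CPM in the other mutant libraries. Flt1 was at 69.4 CPM, against 48.1 to 49.9 CPM. Ramp2 was at 175 CPM, against 99.5 to 107 CPM. Nos3 was at 5.38 CPM, against 1.27 to 1.65 CPM. Erg was at 38.1 CPM, against 13.8 to 14.6 CPM. The remaining one was parental library 1, with Flt4 at 12.2 CPM, against 5.59 to 6.46 CPM in the other parental libraries.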

How the results depend on the processing

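Of 559 gene and alternative pairs over the tested genes, 530 kept their direction and their side of the threshold, 1 lost its call (Fli1 without parental library 3), 6 gained one and 22 changed sign. More endothelial genes passed under DESeq2, limma-voom, no low-count filter and thinning, where the count was 2, and leaving out 1 library gave 0 to 2. Over all genes, 405 passed in DESeq2 and 439 with no filter, against 188, and leaving out 1 library gave 103 to 235. Scaling by library size alone put 63.7% of the called genes higher in the mutant, against 52.7%. Fitted log2 changes crossed 0 when single libraries were left out for Tek (-0.14 to 0.60), Tie1 (-0.14 to 0.50), Ramp2 (-0.079 to 0.39), Apln (-1.28 to 0.14), Egfl7 (-0.063 to 0.070), Ecscr (-0.14 to 0.18), Erg (-0.44 to 0.33) and Lyl1 (-0.43 to 0.18), and with no filter for Egfl7 (-0.000952) and Ecscr (-0.00695). The cause was not tested. In the fit with the replicate block, 234 genes passed and Fli1 had a log2 change of 0.95 (adjusted p = 0.0095). Over all tested genes, deviations of same-numbered libraries correlated at only -0.033 to 0.102. Of the libraries, 1 of 4 parental and 2 of 4 mutant ones correlated best with their own number. For the endothelial genes, library 1 was most often the highest in both lines, for 68.6% and 80% of the tested genes. The labels do not say whether same-numbered libraries shared a batch, and these weak correlations cannot settle it. Depth limits Nos3, Sox18, Clec14a, Apln and Vwf, whose counts were low.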
